A study of Mus musculus with 8 samples.

Results

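The genes described here encode the proteins of the cytosolic ribosome. They were chosen by name, as array probes whose gene name follows the Rpl, Rplp or Rps pattern with a number, leaving out the Rps6 kinases. This gave 82 genes of 34715 gene names on the array, measured by 183 usable probes, and each gene was represented by its probe with the highest mean signal. All 82 names matched a RefSeq gene. Of these, 80 genes passed the filter on dim probes and were tested. The other 2, Rpl10l and Rpl39l, which are testis paralogs of Rpl10 and Rpl39, were not well above background on both arrays of any group. The 80 genes comprised 43 of the large subunit, 30 of the small subunit, the 3 stalk genes Rplp0, Rplp1 and Rplp2, and the 4 paralogs Rpl3l, Rpl7l1, Rpl22l1 and Rps27l.

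RNA was measured on 8 single-colour arrays from 1676 cells, a mouse pre-B cell line of genotype SLP-65-/- LAT-/-, which all 4 groups shared. The cells carried either a retroviral control vector or a retroviral vector for the human microRNA hsa-miR-125b, were selected with 1 µg/ml puromycin, and were kept in excess interleukin-7 (IL-7) or cultured for 24 h without it. This gave 4 groups with n = 2 arrays each: control with IL-7, miR-125b with IL-7, control without IL-7 and miR-125b without IL-7. The design text describes 2 independent experiments with cell clones made anew for each, so each group rests on 2 clones.

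A ribosome is built from a small 40S subunit, which reads the mRNA, and a large 60S subunit, which joins amino acids, and nearly every one of its proteins is needed in a single copy. Many of their mRNAs begin with a run of pyrimidines, the terminal oligopyrimidine tract, through which the mTOR pathway controls their translation when growth factors are present. IL-7 is the growth factor of pre-B cells, and its loss stops their proliferation. miR-125b is a microRNA that pairs with mRNAs mainly through its seed, bases 2 to 8.

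The microRNA carried by the vector, whose mature form is the same in human and mouse, is shown first because the main comparison is with and without it. Its mature sequence, from RefSeq for the mouse gene Mir125b-1 (GRCm38.p6, plus strand, chr9:41581940-41581961), has the seed in capitals.
mmu-miR-125b-5p: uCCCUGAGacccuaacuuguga
The match to this seed, CTCAGGG, lay in 1 of the 183 ribosomal protein probes, a dim probe of Rps3, and in 0.440% of all 55623 probes, read on the probe strand only. A probe covers only 60 bases of its mRNA, so the count says nothing about the rest of the transcript.

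The start sites of 6 members, picked for holding the pyrimidine run (capitals), are printed with 15 bases before and 15 bases from the annotated start, on GRCm38.p6 from RefSeq, to show the run beside members that lack it. Where a gene had several annotated starts, the one with the longest run was taken.
Rps6, minus strand, chr4:86857353-86857382: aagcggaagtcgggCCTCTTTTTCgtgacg
Rpl35, minus strand, chr2:39005117-39005146: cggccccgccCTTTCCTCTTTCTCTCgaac
Rps9, plus strand, chr7:3704026-3704055: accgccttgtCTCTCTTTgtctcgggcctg
Rpl7a, plus strand, chr2:26910792-26910821: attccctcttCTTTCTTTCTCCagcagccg
Rps2, plus strand, chr17:24720048-24720077: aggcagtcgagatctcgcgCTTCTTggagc
Rpl22l1, plus strand, chr3:28805493-28805522: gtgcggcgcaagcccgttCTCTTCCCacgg
The starts of the paralogs Rpl7l1 and Rpl3l held no such run within the window searched.
Rpl7l1, minus strand, chr17:46782642-46782671: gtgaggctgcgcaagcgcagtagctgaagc
Rpl3l, plus strand, chr17:24727811-24727840: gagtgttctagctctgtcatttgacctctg
The run was defined as C followed by at least 5 letters that are each C or T, starting within 5 bases of the annotated start on the transcript's strand. It was present at 26 of the 60 tested members found in the promoter table (43.3%) and at 11.9% of the 27025 genes there. This definition was chosen after 12 had been computed; over those 12 the share was 15% to 61.7% of members and 0.936% to 34.4% of all genes, and it was higher among members under each of the 12.

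The members were among the brightest features of the arrays. The mean processed signal of the chosen probes ranged from 484 (Rpl3l) to 291946, and 70 of the 80 exceeded 100000. Only Rpl3l and Rpl7l1 (713) lay below 10000. All 80 were well above background on all 8 arrays, and 0 spots were saturated on any array. The names of 8 chosen probes (Rpl21, Rpl28, Rpl31, Rps23, Rps24, Rps3, Rps3a and Rps4x) are those of a pseudogene or predicted gene in the older of the array's grid versions. The chosen probes of Rps27 and Rps29 are placed in mm9 on chromosomes 9 and 2, whereas RefSeq places the genes on chromosomes 3 and 12. Ribosomal protein genes have many near-identical processed pseudogenes, so these values may include other loci.

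Each IL-7 condition had a slide of its own, so slide, scan and loss of IL-7 cannot be told apart. Control and miR-125b arrays shared a slide, but on it the controls took column 1 or 2 and the miR-125b arrays column 3 or 4, so vector and column cannot be told apart either. All 12 pre-B markers, among them Cd79a, Vpreb1 and Igll1, were well above background on all 8 arrays. Blnk, which encodes SLP-65, was one of them, and whether its probe lies in the deleted part is not given in the sources used here. Of markers of other cells, 3 of 7 T and NK, 3 of 7 myeloid, 3 of 4 plasma, 1 of 4 erythroid and 0 of 5 stromal genes were well above background on all arrays. Those well above background on all arrays included Cd3e, Klrb1c and Nkg7 of the T and NK list and Csf1r, Itgam and Elane of the myeloid list. Of the other genes, Cd3d, Cd3g, S100a8, S100a9, Alas2, Col1a1, Pdgfrb and Cxcl12 were so on no array. The summed unscaled signal of the T and NK list was 1535 to 1872 with IL-7 and 4059 to 4869 without it, and that of the myeloid list 3587 to 4331 and 7658 to 9076, while the 75th percentile of all probes was also higher. Relative to that percentile, the medians on withdrawal were 0.12 in control and -0.03 in miR-125b cells for 5 tested T and NK genes, and -0.38 and -0.18 for 4 tested myeloid genes. Of the former 1 was called higher in control cells and 2 in miR-125b cells, in both cases with Cd8a, named after its values were seen (8.05 and 8.58 on the log2 scale, from a probe not well above background on every array, so the size depends on the floor), and of the latter 0. Their part in the results was not tested.

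Whether miR-125b changed the ribosomal protein mRNAs was asked separately with and without IL-7. With IL-7, 0 of the 80 tested members passed an adjusted p of 0.05, against 2.4% of all 20677 genes (496). Without IL-7, 0 of 80 passed, against 6.42% of all genes (1328). In the average over both conditions, 0 of 80 passed, against 15.8% of all genes (3266). The members are bright, and other probes with a mean signal of 100000 or more were hardly called either: 0 of 451 with IL-7, 0 of 451 without it and 5 of 451 (1.11%) in the average. The counts over all genes moved with single arrays, to between 0 and 149 with IL-7, 9 and 1137 without it and 990 and 2697 in the average when 1 array was left out; the lowest were reached without control replicate 2 with IL-7, without miR-125b replicate 1 without IL-7 and without control replicate 1 without IL-7. At an unadjusted p under 0.05 the counts were 1, 3 and 3 of 80 members, beside 4221, 5249 and 6787 of all 20677 genes, and the authors' deposited table gave no member past the threshold either. After quantile normalization 0 of 80 passed in each, against 2.22%, 10% and 19.1% of all genes. The median log2 difference of the members was 0.01 in each, beside -0.02 for all genes tested in each.

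The differences were small for nearly all members. With IL-7, 79 of 80 log2 differences lay within 0.2 of 0 (1.15-fold), and without IL-7, 72 of 80 did. The 95% interval lay wholly within 0.5 of 0 (1.41-fold) for 78 members with IL-7, for 72 without and for 79 in the average. The median SE was 0.09 in each condition and 0.07 in the average. With IL-7, 41 members lay above 0 and 39 below, but 69 and 11 did under scaling to the median, 60 and 20 under quantile normalization, and 63 and 17 or 15 and 65 without control replicate 1 or 2 with IL-7. Without IL-7, 45 lay above 0 and 35 below, but 74 and 6 under scaling to the median. The 2 sets of differences come from separate arrays, and across members their correlation was r = 0.50 over 80 genes and r = 0.37 over 79 genes without Rpl3l.

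**Figure D1:**
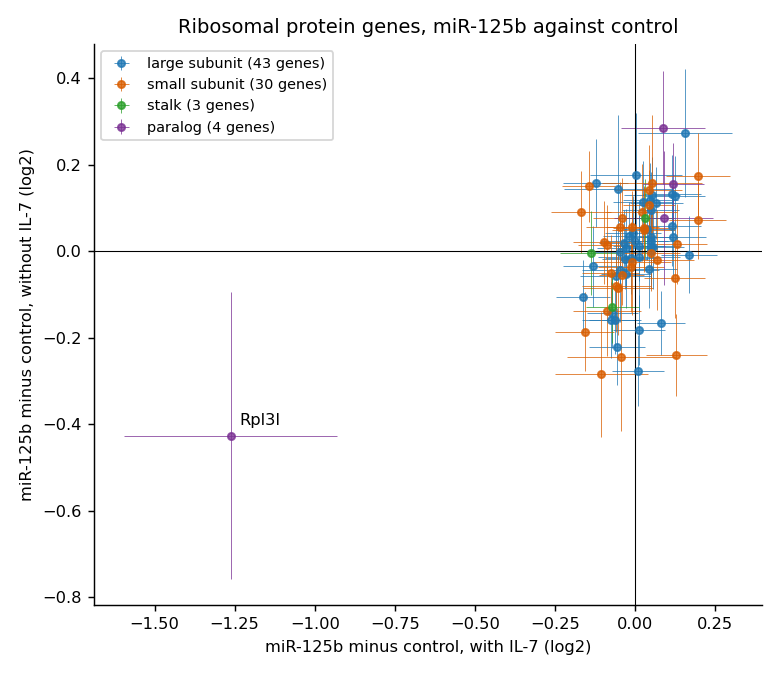
Each point is 1 of the 80 tested genes, with the log2 difference of miR-125b from control with IL-7 on the horizontal axis and without IL-7 on the vertical axis, and bars of 1 SE. All points but Rpl3l (-1.26 and -0.43) lie within 0.3 of 0 on both axes, and none passed an adjusted p of 0.05.

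The stalk recruits translation factors to the large subunit. Rplp0, its base, had scaled log2 signals of 9.93 and 9.72 in control and 9.68 and 9.70 in miR-125b cells with IL-7, and of 9.11, 8.97, 9.04 and 9.03 in the same order without it. The miR-125b arrays lay below both controls with IL-7 and between them without it. The differences were -0.14 (adjusted p = 0.472) and 0.00 (adjusted p = 0.985). Rplp1 (0.03 and 0.08) and Rplp2 (-0.07 and -0.13), the acidic pair that binds to it, did not pass either.

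Among small subunit genes, Rps6 encodes the substrate of the S6 kinases. It stood at 9.38 and 9.22 in control and 9.15 and 9.15 in miR-125b cells with IL-7, and at 8.66, 8.67, 8.86 and 8.77 without it. The miR-125b arrays lay below both controls with IL-7 and above both without it, with differences of -0.15 (adjusted p = 0.380) and 0.15 (adjusted p = 0.320). Rps19, mutated in Diamond-Blackfan anaemia in humans, differed by -0.05 and 0.05. Rps26, another gene of that disease, differed by -0.10 and 0.02, and Rps27a, which is made as a fusion with ubiquitin, by 0.04 and 0.11. The 30 small subunit genes ranged from -0.17 to 0.20 with IL-7 and from -0.28 to 0.17 without it.

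Among large subunit genes, Rpl5 and Rpl11 bind the 5S rRNA and, when free, the p53 regulator Mdm2. Rpl5 differed by 0.02 with IL-7 and 0.11 without it, and Rpl11 by -0.05 and 0.14. Rpl23 (-0.12 and 0.16) and Rpl26 (0.17 and -0.01), both also linked to p53, did not pass. Neither did Rpl3 (0.05 and 0.02) of the peptidyl transferase centre, Rpl10 (-0.01 and 0.04), added late in assembly, Rpl13a (0.04 and 0.05), Rpl38 (0.01 and -0.18), required for Hox mRNA translation in mice, or Rpl41 (-0.13 and -0.04), the smallest. The 43 large subunit genes ranged from -0.16 to 0.17 with IL-7 and from -0.28 to 0.27 without it. The lowest without IL-7 was Rpl9, at 8.93 and 8.94 in control and 8.63 and 8.69 in miR-125b cells (-0.28, SE 0.08, adjusted p = 0.109), where both miR-125b arrays lay below both controls; it was named after its value was seen.

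Rpl3l, the paralog of Rpl3 used in heart and skeletal muscle, had the lowest difference in all 3 of these comparisons. Its scaled log2 signals with IL-7 were -0.90 and -0.88 in control and -1.61 and -2.69 in miR-125b cells. Without IL-7 they were 0.83 and 0.75 in control and 0.51 and 0.22 in miR-125b cells. The miR-125b arrays lay below both controls in each condition, and with IL-7 they differed by more than 1 log2 unit from each other. The differences were -1.26 with IL-7 (SE 0.33, adjusted p = 0.115), -0.43 without it (adjusted p = 0.479) and -0.84 in the average (SE 0.23, adjusted p = 0.0637). The average passed under normexp background correction (-0.58, adjusted p = 0.00875), with probes well above background on all arrays (adjusted p = 0.0347) and without either miR-125b array with IL-7. Without replicate 1 of that group it was -1.11 (adjusted p = 0.0105), and without replicate 2 it was -0.58 (adjusted p = 0.0322). Over its alternatives the adjusted p of the average ranged from 0.00875 to 0.172.

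Rpl3l rests on 1 probe with unscaled signals of 46.1 to 152 with IL-7 and 725 to 958 without it. The probes of Rpl3l and of its bright parent Rpl3 are shown to let the 2 be compared. Each is placed in mm9 over a span longer than the probe itself, and capitals mark the longest run they share, 6 bases.
Rpl3, minus strand, chr15:79908489-79908772: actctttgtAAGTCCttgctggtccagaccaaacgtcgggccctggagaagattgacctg
Rpl3l, plus strand, chr17:24872413-24872681: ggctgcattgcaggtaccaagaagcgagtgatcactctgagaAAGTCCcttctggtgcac
The other paralogs did not pass in any of the 3 comparisons. Rpl7l1 differed by 0.09 and 0.29, Rpl22l1 by 0.12 and 0.15 and Rps27l by 0.09 and 0.08, with and without IL-7. Their parents Rpl7 (-0.03 and -0.02), Rpl22 (0.08 and -0.17) and Rps27 (-0.08 and -0.05) did not pass, nor did Rps4x (-0.09 and 0.01).

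The unscaled signals on IL-7 withdrawal are given first, since the direction of the family depended on the scaling. In bulk samples, fewer cells of a type and less RNA per cell cannot be told apart. The median processed signal of the 80 members was 171939 and 152583 in control and 174649 and 170825 in miR-125b cells with IL-7. Without IL-7 it was 178071 and 196217 in control and 202431 and 214021 in miR-125b cells, so all 4 arrays without IL-7 lay above all 4 with it, by 0.24 on the log2 scale. The 75th percentile of all probes, by which the arrays were scaled, was 276 to 314 with IL-7 and 515 to 620 without it, higher by 0.96 on the log2 scale. The 7 spike-in control probes with a signal of at least 50 on every array went the other way, lower by 1.12 on the log2 scale without IL-7. Whether equal amounts of spike-in went into all labelling reactions is not given in the sources used here, so these values set no scale. The brightest of them gave 157634 to 170549 with IL-7 and 71335 to 76546 without it.

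**Figure D2:**
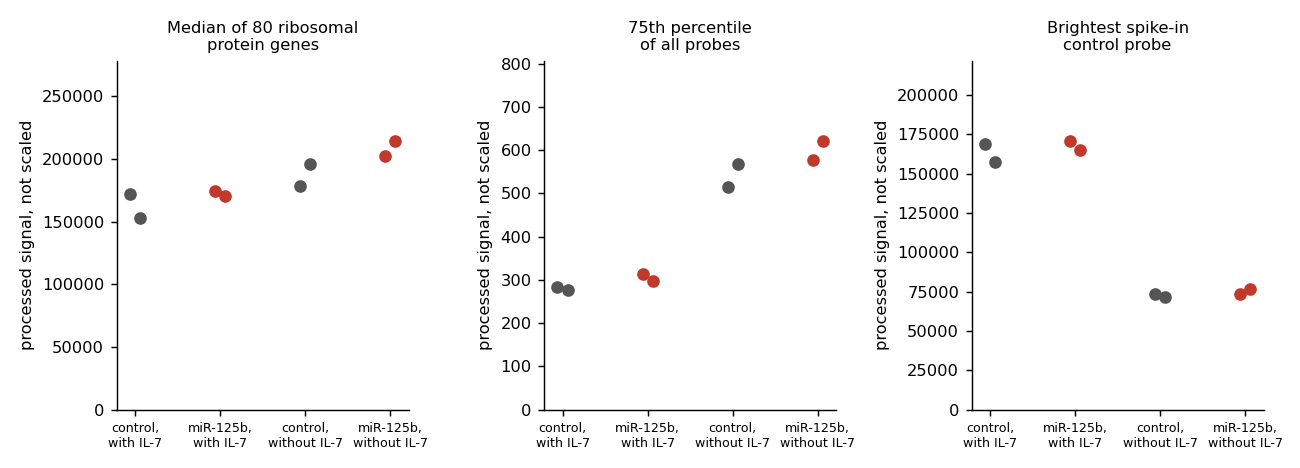
Unscaled processed signal of the 8 arrays, 1 point an array, for the median of the 80 ribosomal protein genes, the 75th percentile of all probes and the brightest spike-in control probe. Without IL-7 the first 2 are higher and the spike-in probe is lower, at 71335 to 76546 against 157634 to 170549.

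Relative to the 75th percentile, 79 of 80 members were called on withdrawal in control cells, 78 lower and 1 higher, against 54.7% of all genes (35% lower, 19.7% higher). In miR-125b cells, 80 of 80 were called, 79 lower and 1 higher, against 53.8% of all genes (35.1% lower, 18.7% higher). The median log2 difference of the members was -0.71 and -0.73, beside -0.14 and -0.15 for all genes. Under quantile normalization, which gives all arrays one distribution, the members' medians were 0.00 and -0.02, beside -0.04 and -0.03 for all genes. There 13 members were called in control cells, 8 higher and 5 lower, against 51.7% of all genes (23.8% higher, 27.9% lower), and 16 in miR-125b cells, 6 higher and 10 lower, against 47.1% (22.6% higher, 24.5% lower). The authors' deposited table gave the same counts, but its columns share 1 median and 1 minimum and its values lie close to the quantile-normalized ones. It is therefore not a separate check. Scaled to the array median, the members' medians were -1.04 and -0.95, and all genes shifted to -0.47 and -0.37.

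The fall relative to the 75th percentile was shared by other probes with a mean signal of 100000 or more, but less so by dimmer ones. With every kept probe taken by itself, 123 member probes with a mean signal of 100000 or more had a median of -0.70 in control cells, and 451 other probes that bright had -0.71. In miR-125b cells the medians were -0.70 and -0.68. From 10000 to 100000 the 36 member probes had medians of -0.73 in control and -0.79 in miR-125b cells. The 3039 other probes of that band had -0.38 and -0.42. Below 10000 the 20 member probes had medians of -0.51 and -0.67, and the 26142 other probes had -0.04 and -0.05. The part of signal level in the fall was not tested further, and the bands were chosen after the data had been seen.

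The spread of this response among the members was described but not compared with that of other genes. Without Rpl3l, the SD over the other 79 was 0.17 in control and 0.18 in miR-125b cells, with a range of -1.22 to -0.33 and -1.24 to -0.33. The responses of these 79 in control and in miR-125b cells come from separate arrays but from the same pair of slides. A slide or scan effect on a probe would therefore enter both responses, which are not independent in this respect. Their correlation was r = 0.78, and r = 0.83 after quantile normalization. The 43 large subunit genes had medians of -0.70 and -0.72, the 30 small subunit genes -0.72 and -0.74, and the 3 stalk genes -0.79 and -0.65. Rps15a was the member not called in control cells (-0.33, adjusted p = 0.0544). Of the 60 members found in the promoter table, the 26 with the pyrimidine run as defined had medians of -0.72 and -0.75. The 34 without it had -0.69 and -0.72. After quantile normalization the medians were -0.0006 and -0.042 with the run and -0.009 and -0.0009 without it, so the order in control cells turned.

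**Figure D3:**
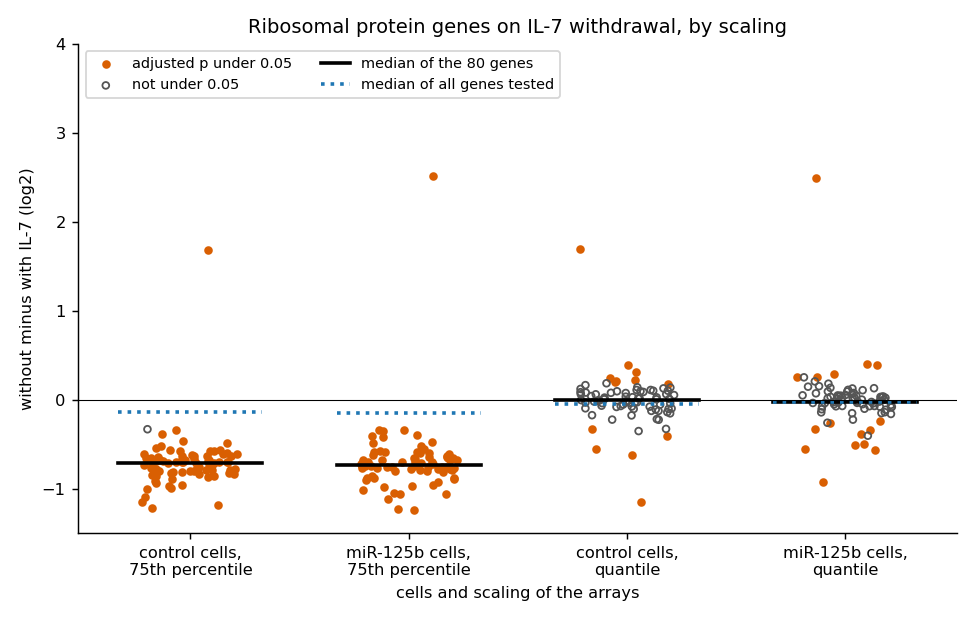
Log2 difference without minus with IL-7 of the 80 tested genes in control and miR-125b cells, scaled to the 75th percentile or by quantile normalization; filled points passed an adjusted p of 0.05, bars are the genes' median and dotted bars that of all genes tested. The medians lie at -0.71 and -0.73 under the first scaling and at 0.00 and -0.02 under the second, while Rpl3l stays at the top under both.

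Rps2, a protein of the mRNA entry channel, had the largest fall of the family in both kinds of cell relative to the 75th percentile. Its scaled log2 signals were 9.0 and 8.76 in control and 9.05 and 9.11 in miR-125b cells with IL-7, against 7.64, 7.69, 7.80 and 7.88 without it. All arrays without IL-7 lay below all arrays with it. It fell by 1.22 in control (SE 0.10, adjusted p = 0.00134) and by 1.24 in miR-125b cells (SE 0.10, adjusted p = 0.00162). After quantile normalization it fell by 0.55 (adjusted p = 0.00268) and by 0.56 (adjusted p = 0.00322). Unscaled, its signal was 119804 to 166706 with IL-7 and 102487 to 146053 without it, ranges that overlap. Its probe lies at chr17:24857583-24857642 in mm9, 14.8 kb from that of Rpl3l.
Rps2: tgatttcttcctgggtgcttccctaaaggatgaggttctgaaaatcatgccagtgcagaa

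Relative to the 75th percentile, the next largest falls in control cells were those of Rpl7l1 (-1.18), Rpl11 (-1.15), Rpl22l1 (-1.1) and Rps24 (-1.0). In miR-125b cells the next largest included those of Rps10 (-1.12), Rpl22l1 (-1.06) and Rpl29 (-1.06). Quantile normalization kept the call and direction of Rpl7l1 and Rpl22l1 in both kinds of cell and of Rpl29 in miR-125b cells. It did not keep that of Rpl11 (-0.35, adjusted p = 0.0994), Rps24 (-0.22, adjusted p = 0.0625) or Rps10 (-0.40, adjusted p = 0.0717). Rpl11 stood at 9.93 and 9.82 in control cells with IL-7 and at 8.49 and 8.95 without it, so the latter arrays differed by more than 0.4 from each other. Its 3 probes differed by -1.15 to -0.65 there. A dimmer kept probe of Rps24 differed by -0.28 in control and by -0.11 in miR-125b cells relative to the 75th percentile, beside -1.0 and -0.74 for the chosen one.

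After quantile normalization, 5 members were lower and 4 were higher in both kinds of cell. The lower ones were Rpl7l1, Rpl22l1, Rps2, Rpl7a and Rps21, all 5 of which were also called lower relative to the 75th percentile. The higher ones included Rpl3l, Rps7 and Rpl21. Of these, Rps7 and Rpl21 turned direction between the scalings. Rps7, a small subunit protein that also binds Mdm2, had quantile-normalized log2 signals of 16.55 and 16.55 in control and 16.56 and 16.57 in miR-125b cells with IL-7, and of 16.91, 16.83, 16.84 and 16.80 without it. It differed by 0.32 (adjusted p = 0.00874) and 0.26 (adjusted p = 0.0188) after quantile normalization but by -0.34 (adjusted p = 0.0209) and -0.40 (adjusted p = 0.013) relative to the 75th percentile. Rps21, Rpl7a, Rps7 and Rpl21 were named after their values were seen.

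Rpl5, Rpl23 and Rpl26 are linked to p53 regulation. Relative to the 75th percentile, Rpl5 fell by 0.57 in control and by 0.48 in miR-125b cells, Rpl23 by 0.63 and by 0.35, and Rpl26 by 0.54 and by 0.72. After quantile normalization Rpl5 differed by -0.04 and 0.13 and Rpl26 by 0.17 and -0.04, none past the threshold, and Rpl23 by 0.11 (adjusted p = 0.313) and 0.39 (adjusted p = 0.015). Rps6 fell by 0.63 and by 0.33 relative to the 75th percentile, while under quantile normalization it differed by 0.12 (adjusted p = 0.125) and 0.40 (adjusted p = 0.00463), so its direction depended on the scaling. In miR-125b cells these falls of Rpl23 and Rps6 lost their call when single arrays were left out: each without either miR-125b array with IL-7 or without replicate 2 without it (adjusted p of 0.0906 to 0.131 for Rpl23 and 0.0591 to 0.0918 for Rps6), and Rpl23 also without replicate 1 without IL-7 (adjusted p = 0.0761).

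**Figure D4:**
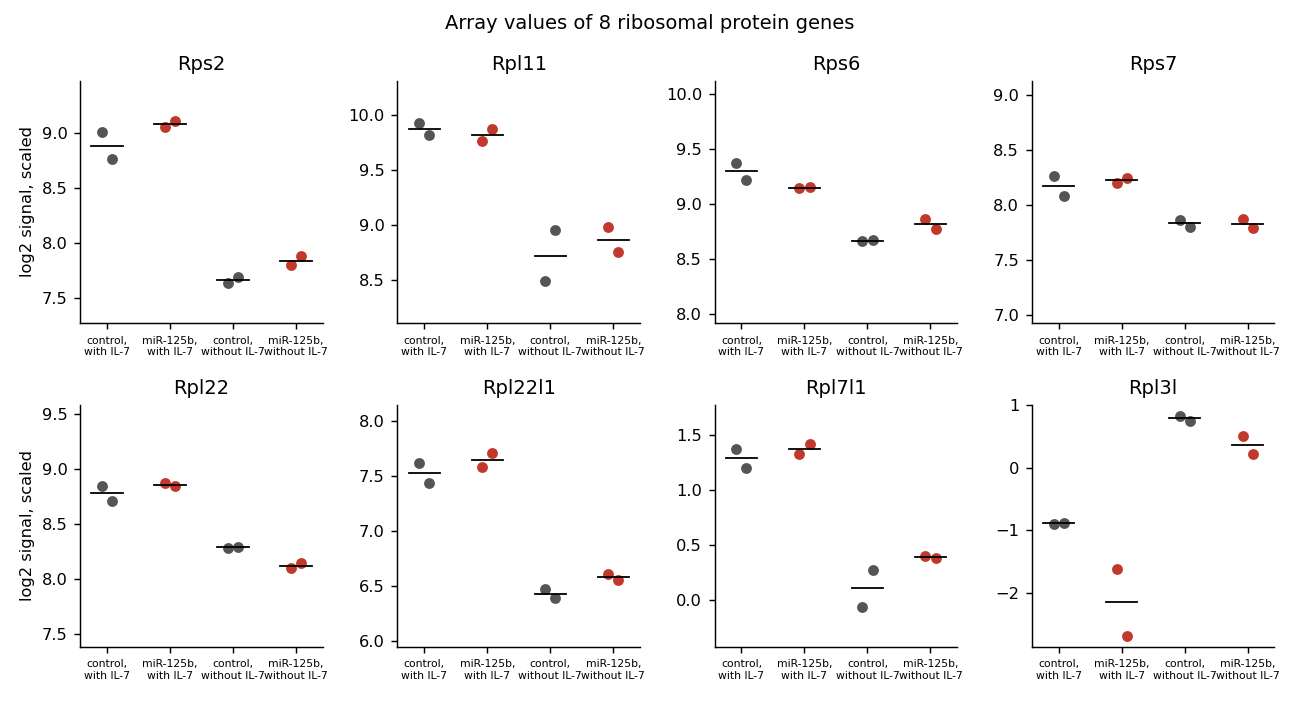
Log2 signal of 8 members on each array, scaled to the 75th percentile, with 1 point an array and a bar at the group mean; the vertical axes differ in position, and that of Rpl3l also in span. Rps2 and Rpl22l1 drop by more than 1 log2 unit without IL-7, and Rpl3l, at -2.69 to -0.88 with IL-7, lies at 0.22 to 0.83 without it.

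Of the 4 paralogs, 1 rose and 3 fell relative to the 75th percentile in each kind of cell. Rpl3l rose by 1.68 in control (SE 0.33, 3.21-fold, adjusted p = 0.00829) and by 2.52 in miR-125b cells (SE 0.33, 5.73-fold, adjusted p = 0.00276), with all arrays without IL-7 above all arrays with it. It also rose after quantile normalization (1.69 and 2.49, adjusted p = 0.0108 and 0.00422). Its parent Rpl3 stood at 9.18 and 8.99 in control and 9.08 and 9.18 in miR-125b cells with IL-7, and at 8.32, 8.30, 8.31 and 8.35 without it. Rpl3 fell by 0.77 and by 0.80 relative to the 75th percentile and differed by -0.03 and -0.10 after quantile normalization. No test of the difference between a paralog and its parent was run.

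Rpl22l1, a paralog that Rpl22 represses in mice, went from 7.61 and 7.43 to 6.47 and 6.39 in control cells and from 7.58 and 7.70 to 6.61 and 6.55 in miR-125b cells. All arrays without IL-7 lay below all arrays with it. It fell by 1.1 (SE 0.09, adjusted p = 0.00141) and by 1.06 (SE 0.09, adjusted p = 0.00176), and by 0.62 and by 0.51 after quantile normalization (adjusted p = 0.00248 and 0.00503). Rpl22 fell by 0.49 and by 0.74 relative to the 75th percentile, whereas a dimmer kept probe of the gene differed by -0.01 and -0.14. After quantile normalization the chosen probe of Rpl22 differed by 0.22 (adjusted p = 0.0441) and -0.06 (adjusted p = 0.526).

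Rpl7l1, a dim member, went from 1.37 and 1.20 to -0.06 and 0.28 in control cells and from 1.33 and 1.42 to 0.40 and 0.39 in miR-125b cells. It fell by 1.18 (SE 0.13, adjusted p = 0.00172) and by 0.98 (SE 0.13, adjusted p = 0.00279), and by 1.15 and by 0.92 after quantile normalization. Unscaled, the control arrays went from 735 and 635 to 493 and 688, while the miR-125b arrays stood at 791 and 793 and then at 760 and 811, so those ranges overlapped. Rpl7 fell by 0.71 and by 0.70 relative to the 75th percentile and differed by 0.03 and 0.00 after quantile normalization. Rps27l, a p53 target in human cells, fell by 0.76 and by 0.77 relative to the 75th percentile, beside 0.62 and 0.59 for the falls of Rps27. After quantile normalization Rps27l differed by -0.33 (adjusted p = 0.0707) and -0.26 (adjusted p = 0.135). Its fall lost its call in control cells without replicate 1 without IL-7 (adjusted p = 0.0534) and in miR-125b cells without replicate 1 without IL-7 (adjusted p = 0.0512). The Rpl7l1 probe, minus strand in mm9 at chr17:46912582-46912641, is shown because it is the single probe behind the gene.
Rpl7l1: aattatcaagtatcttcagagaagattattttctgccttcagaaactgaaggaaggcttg

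Whether the response to withdrawal differed between miR-125b and control cells was tested directly. Of the 80 members 0 passed, and of all 20677 genes 0 passed (0%), with 2 members and 1221 genes at an unadjusted p under 0.05. With quantile normalization 0 members and 1 gene (0.00484%) passed. The members' median difference was 0.00, with a range of -0.37 to 0.83 (Rpl3l), and the smallest adjusted p among members was 0.817. The 95% interval lay within 0.5 of 0 for 64 of 80.

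Single probes gave a further view of the members, since 56 of the 80 genes had more than 1 kept probe. In the average of both IL-7 conditions, 5 of 179 member probes were called with miR-125b, all 5 higher, against 13.8% of all 29811 kept probes (6.78% higher). All 5 had a mean signal below 10000, where they were 5 of 20 member probes (25%), beside 14.4% of the 26142 other probes that dim, 7.25% of them higher. From 10000 to 100000, 0 of 36 member probes passed, beside 325 of 3039 other probes, and at 100000 or more 0 of 123 passed, beside 1.11% of 451. The medians of member probes were 0.26 (9 probes) below 1000, 0.30 (11 probes) from 1000 to 10000, 0.08 (36 probes) from 10000 to 100000 and 0.02 (123 probes) above. Those of other probes were -0.03, 0.00, 0.01 and -0.01.

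The 5 probes include those of Rpl14, Rps3, Rps25 and Rpl22, genes named after their values were seen. The dim Rpl14 probe, at chr9:120483689-120483748 in mm9, had scaled values of 3.82 and 3.52 in control and 4.23 and 4.29 in miR-125b cells with IL-7, and of 2.70, 2.77, 3.26 and 3.37 without it. The miR-125b arrays lay above both controls in each condition, by 0.58 in the average (SE 0.08, adjusted p = 0.014). The brightest Rpl14 probe differed by 0.00. The dim probes of Rps3 (0.49, adjusted p = 0.0215), Rps25 (0.26, adjusted p = 0.0348) and Rpl22 (0.25, adjusted p = 0.042) differed where the brightest probes gave -0.05, 0.07 and -0.04.

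Over the 17 genes with both kinds of probe, the dim probe lay above the bright one in the average for 16 of 18 dim probes. With IL-7 it did so for 17 of 18 and without IL-7 for 13 of 18. The medians in the average were 0.27 for the dim probes and 0.02 for the bright ones. Dim probes of a gene share its transcripts with the bright probe, and which transcripts each one reports was not tested. On withdrawal the dim Rpl14 probe differed by -0.94 in control and by -0.94 in miR-125b cells, beside -0.68 and -0.70 for the brightest.

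**Figure D5:**
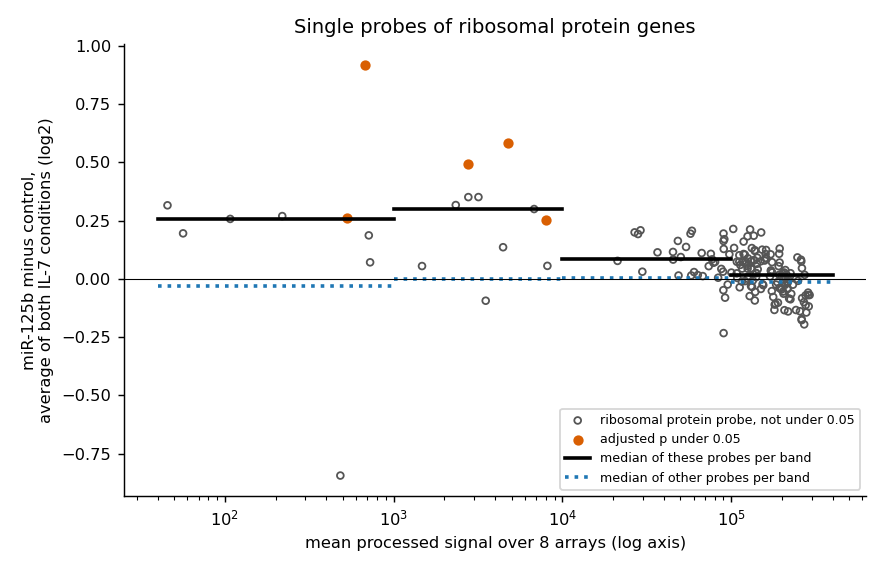
Log2 difference of miR-125b from control, averaged over both IL-7 conditions, of the 179 kept ribosomal protein probes against their mean signal; filled points passed an adjusted p of 0.05, bars are their medians per signal band and dotted bars those of other probes. The 5 filled points all lie below a signal of 10000 and above 0.

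Genes around the family were read from short lists. The 5 ribosomal protein genes outside the name pattern, among them Rpsa, Fau, Rack1 and Rpl36al, were called in 0 of 5 cases by miR-125b in each comparison. On withdrawal they had medians of -0.79 and -0.74 relative to the 75th percentile. There 5 and 4 of 5 were lower, beside 35% and 35.1% of all genes. After quantile normalization the medians were -0.16 and -0.04, with 1 of 5 lower in each kind of cell, beside 27.9% and 24.5% of all genes. Of 22 other mRNAs known for a terminal oligopyrimidine tract, such as those of elongation factors, 0 were called with miR-125b relative to the 75th percentile. Of all genes, 2.4%, 6.42% and 15.8% were called with IL-7, without it and in the average. After quantile normalization 0, 2 and 3 of the 22 were called in the same order, all higher, beside 2.22%, 10% and 19.1% of all genes. On withdrawal 18 of the 22 were lower in each kind of cell relative to the 75th percentile, beside 35% and 35.1% of all genes. These shares of all genes are not matched for signal level, and many of the 22 are bright. Of 3490 probes outside the family with a mean signal of 10000 or more, 2254 were lower in control and 2327 in miR-125b cells. After quantile normalization 3 of the 22 were higher and 3 lower in control cells, beside 23.8% and 27.9% of all genes. In miR-125b cells 3 were higher and 2 lower, beside 22.6% and 24.5% of all genes. Npm1, a nucleolar assembly factor, fell by 1.31 in control cells, and by 0.76 after quantile normalization.

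The chaperones and importers that handle free ribosomal proteins were a list of 10 genes. With IL-7, 0 of 10 were called with miR-125b, and without it 1 was, higher, beside 2.4% and 6.42% of all genes called. In the average of both IL-7 conditions 5 of 10 were called higher with miR-125b, against 7.7% of all genes called higher: Grwd1, a chaperone of Rpl3 (0.73, adjusted p = 0.0135), the importin Ipo4 (0.71, adjusted p = 0.0187), Rrs1, which loads Rpl5 and Rpl11 (0.49, adjusted p = 0.0364), Tsr2, a chaperone of Rps26 (0.38, adjusted p = 0.0188) and the importin Ipo7 (0.36, adjusted p = 0.0188). On withdrawal 9 of 10 were lower in control and 8 of 10 in miR-125b cells, beside 35% and 35.1% of all genes. After quantile normalization 7 and 8 of 10 were lower, beside 27.9% and 24.5% of all genes. Heatr3 was called higher, by 0.42 in control (adjusted p = 0.0333) and 0.40 in miR-125b cells (adjusted p = 0.0391). After quantile normalization it was higher by 0.58 (adjusted p = 0.0186) and 0.61 (adjusted p = 0.0177). Of 14 regulators of ribosomal protein mRNAs, Myc, a transcription factor of growth genes, was the one called higher with miR-125b, without IL-7 and in the average (1.14 in the average, adjusted p = 0.0142). Of all genes, 6.42% and 15.8% were called in these 2 comparisons. After quantile normalization Larp1, which binds these mRNAs (0.30, adjusted p = 0.0337), was also higher in the average, and Eif4ebp2, a repressor of cap-dependent translation, was lower (-0.25, adjusted p = 0.0376). There 19.1% of all genes were called. Of 6 genes of the sensing of free ribosomal proteins, such as Mdm2 and Trp53, 0 were called with miR-125b. The shares of all genes called were 2.4%, 6.42% and 15.8% with IL-7, without it and in the average.

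The 76 mitochondrial ribosomal protein genes served as a family of like function. With miR-125b, 0, 1 and 3 of 76 were called with IL-7, without it and in the average, all higher, with medians of 0.10, 0.01 and 0.06, beside 2.4%, 6.42% and 15.8% of all genes called. After quantile normalization 6 were higher and 2 lower in the average, beside 19.1% of all genes. The 3 called relative to the 75th percentile were Mrpl38 (0.40), Mrps27 (0.39) and Mrpl17 (0.31). On withdrawal 68 and 72 of 76 were lower relative to the 75th percentile, beside 35% and 35.1% of all genes, with medians of -0.60 and -0.64. These shares of all genes are not matched for signal level. After quantile normalization 49 and 52 of 76 were still lower and 0 higher, beside 27.9% and 24.5% of all genes lower. The medians were then -0.38 and -0.39, beside 0.00 and -0.02 for the cytosolic family. Quantile normalization gives equal ranks equal values on every array, and 70 of the 80 tested cytosolic members had a signal above 100000. The method itself can hold the median of so bright a family near 0, so these medians are not a like-for-like comparison. The difference between the families was not tested.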

How the data were processed

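RNA from 8 cultures was measured on single-colour Agilent arrays. The scanner files deposited by the authors hold the processed signal, which per the file headers is a background-subtracted intensity (linear, not normalized between arrays), and other marks of 0 or 1 per spot for well above background, saturation and outliers. According to the headers, Agilent Feature Extraction had version 10.7.3.1 on the slide with IL-7 and version 10.7.1.1 on the other; the submitters' processing notes name 10.7.1.1. The authors' deposited table, an intensity on a linear scale, has a median of 21.7 and a minimum of 3.34 in every column. Its log2 values correlate with the scanner signal at r of at least 0.999. It served as an alternative, but its results lay close to those of quantile normalization, so these 2 alternatives are not independent. No column came from another series.

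Spots of a probe were averaged, and values were log2 signal minus the log2 75th percentile of the array over 55623 probes. A probe was kept when well above background on both arrays of a group. Each gene took its kept probe with the highest mean signal, which left 20677 genes, and a mean for each of the 4 groups was fitted with limma 3.58.1 under R 4.3.3 (lmFit and eBayes, prior of 1.81 degrees of freedom, 4 residual). p-values are two-sided and adjusted by Benjamini-Hochberg over all genes of a comparison; a gene was called at an adjusted p under 0.05. The test was tried on simulated data. The number of arrays limits the precision. The p-values rest on the spread between the 2 arrays of a group, pooled over the 4 groups and moderated over all genes. Both arrays of a group lay on 1 slide, so this spread holds no variation between slides. Replicates of a group correlated at r = 0.994 to 0.996.

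Members and lists were chosen with earlier results of these data known. Genes were named by rule: the 5 largest rises and falls called in a comparison, 16 members with a known role, the paralogs with their parents, and ribosomal protein genes outside the pattern. Probe positions are in mm9, as in the files. Same-numbered replicates of different groups had deviations that correlated at r = -0.10 to 0.12. Alternatives were other scalings, normexp with an offset of 50, the deposited table, other filters, the mean of all probes, the replicate number as a block, probes named alike in both grid versions, the compared arrays alone, and each array left out. The probes named alike in both grid versions and the tests of every kept probe by itself were chosen after seeing the data. The values of some genes that the rule names are not reported here.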

Additional observations from a re-analysis of the deposited data

How the results depend on the processing

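The 6 counts of called members and 6 medians were recomputed under the alternatives, except that fitting the compared arrays alone left out the average and the difference of the responses. With miR-125b, 0 members were called in each comparison except that Rpl3l was called lower, as 1 member, under normexp (with IL-7 and in the average), with probes well above background on all arrays (average), without miR-125b replicate 1 with IL-7 (with IL-7 and in the average) and without replicate 2 of that group (average). Scaling to the median gave members' medians of 0.094 with IL-7, 0.21 without and 0.15 in the average, and 0.11 for the difference of the responses, with 0 called in each, beside medians of all genes of 0.07, 0.18, 0.12 and 0.10. Leaving out an array moved the median with IL-7 between -0.067 (without control replicate 2 with IL-7) and 0.073 (without control replicate 1 with IL-7), without IL-7 between -0.01 and 0.05, in the average between -0.03 and 0.05 and for the difference of the responses between -0.060 and 0.085. The counts then ranged from 0 to 1 with IL-7 and in the average and were 0 otherwise.

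On withdrawal in control cells, the members' median was -1.04 under scaling to the median, -0.61 under normexp and 0.0019 under quantile normalization and 0.0037 with the deposited table, where 13 were called. In miR-125b cells it was -0.95, -0.58 and, under both of the last, -0.020, with 16 called under both of the last 2. Leaving out an array gave medians of -0.80 to -0.62 with 75 to 80 called in control cells, and of -0.76 to -0.68 with 71 to 80 called in miR-125b cells. Scaling to the 75th percentile and quantile normalization differ by their construction, and which reference fits these samples was not tested.

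Of 150 results for named genes, 50 of 2652 values under an alternative turned direction. Of these, 25 were under quantile normalization and 25 under the deposited table, which lies close to it. Where 1 value is given it holds for both, and where 2 are given the deposited table is second. In control cells these were Rpl13a (0.063 and 0.069), Rpl22 (0.22), Rpl23 (0.11), Rpl26 (0.17), Rpl38 (0.064), Rpl41 (0.017 and 0.016), Rpl7 (0.030), Rplp2 (0.17), Rps19 (0.086 and 0.091), Rps27 (0.13) and Rps6 (0.12). In miR-125b cells these were Rpl10 (0.017), Rpl13a (0.048 and 0.055), Rpl23 (0.39), Rpl41 (0.14 and 0.13), Rpl5 (0.13 and 0.14), Rpl7 (0.0027 and 0.0026), Rplp0 (0.11), Rplp2 (0.13), Rps19 (0.21), Rps26 (0.034 and 0.033), Rps27 (0.15), Rps27a (0.025), Rps4x (0.074 and 0.081) and Rps6 (0.40).

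No other alternative turned a called gene; 17 values lost their call there, for Rps6, Rps19, Rpl23 and Rps27l on withdrawal, and the cause was not tested. The replicate number as a block was not taken as a pairing, and whether same-numbered replicates belong together was not tested. It gave 0, 0 and 0 members called with miR-125b, beside 22, 447 and 2133 of all 20677 genes. On withdrawal it gave 80 members in control and 79 in miR-125b cells, beside 10577 and 10417 of all genes, and 0 for the difference. The medians were 0.01, 0.01, 0.01, -0.71, -0.73 and 0.00. Under the block Rpl23 lost its call on withdrawal in miR-125b cells (adjusted p = 0.0532), and no other named gene did. Each slide held 1 IL-7 condition, so slide as a block was not run. The number of arrays limits the precision.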
